A study of Mus musculus with 3 samples.

Results

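Cytosolic ribosomal protein genes and their paralogs were examined in RNA sequencing libraries of mouse microglia, the resident macrophages of the brain. Members were the rows whose gene symbol began with Rpl or Rps followed by a digit. Symbols marked as pseudogenes by -ps and the Rps6k kinases were left out. The rule gave 84 of the 24411 tabulated genes, and it used names only. They comprised 73 core genes (43 of the large subunit and 30 of the small subunit), 8 paralogs whose symbols end in l or l1 (here l-type paralogs), 2 retrogenes marked rt, and Rps19bp1. Rps19bp1 carries the prefix but encodes a protein that binds Rps19 and the deacetylase Sirt1, and it is not a ribosomal subunit. Another 7 proteins of the ribosome carry other symbols, such as Rplp0, Rplp1 and Rplp2 of the stalk, and 6 of them were found in the table, with Rack1 not found under that symbol.

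The cytosolic ribosome joins a small subunit, which decodes the mRNA, to a large subunit, which forms the peptide bond and holds the exit tunnel for the growing chain. Each subunit holds 1 copy of nearly every one of its proteins, so cells make them in coordinated amounts. Their mRNAs are short and abundant, and they begin at a cytosine followed by a run of pyrimidines, the TOP motif through which mTOR signalling and Larp1 control their translation. A few genes have paralogs with restricted expression, such as Rpl3l in muscle and Rpl10l and Rpl39l in the testis. Reverse transcription of these abundant mRNAs has also left many intronless copies in mammalian genomes.

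All 3 libraries belonged to 1 group, replicates 1 to 3. They came from brain microglia of C57BL/6J mice of genotype Mir137 loxP/loxP;Tmem119-CreERT2 (cKO), which received tamoxifen injections for 7 days from an age of 7 to 8 weeks, while the age label reads 6 to 8 weeks. The Cre recombinase is expressed from Tmem119, a microglial gene, and deletes Mir137 once tamoxifen is given. The treatment label is Pu.1 inhibitor, Pu.1 being the transcription factor encoded by Spi1. Microglia with intact Mir137 and knockout microglia without the inhibitor were not analysed here, so no effect of either was estimated. The design text gives 4 mice and does not tie animals to replicates, so the spread between these libraries may be technical. The p-values concern these libraries alone and set their differences against counting error only.

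Replicates 1, 2 and 3 held 17180404, 15710750 and 16356125 estimated counts. Counts were also scaled by the library's total, as CPM. A count of 0 allows a level of up to 0.175, 0.191 and 0.183 CPM in these libraries, the value of 3 counts, and this limit covers counting error only. All 8 microglial marker genes were detected, meaning an FPKM (fragments per kilobase of effective length, scaled to library size) of at least 1 in every library, and their summed level was 26845 to 27498 CPM. The 6 neutrophil markers (2832 to 3053 CPM in sum), 6 endothelial markers (2337 to 2467 CPM), 4 choroid plexus markers (5160 to 5926 CPM) 4 astrocyte markers (499 to 537 CPM) and 4 oligodendrocyte markers (473 to 579 CPM) were detected as well. Of the 4 erythroid markers 2 were detected, and of the 4 neuronal markers 0 were. Other cells also make ribosomes, and in these bulk libraries more cells of a type and more RNA per cell cannot be told apart.

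Nearly all core genes were expressed at high levels. Of the 84 members 80 were detected, including 72 of the 73 core genes, and the core gene not detected was Rpl26. The median core level, as log2(FPKM + 1), was 9.32 in replicate 1, 9.48 in replicate 2 and 9.23 in replicate 3, or 9.34 ± 0.13 (mean ± SD, n = 3), against 0.95 ± 0.02 over all genes. The quartiles of mean FPKM over the core genes were 387 and 961, with a median of 663. A level of at least 100 FPKM was reached by 68 core genes. The core genes took 9.46 ± 0.63% of the summed FPKM of a library. All members together took 2.11, 2.38 and 1.999% of the estimated counts in replicates 1, 2 and 3, or 2.16 ± 0.19% (SD, n = 3).

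With the deposited values, core genes of the small subunit stood above those of the large subunit. Their median level was higher by 0.60, 0.68 and 0.59 on the log2(FPKM + 1) scale in replicates 1, 2 and 3, a difference of 0.62 ± 0.05 (SD, n = 3). By mean level, the median was 862 FPKM for the 30 small-subunit genes and 558 FPKM for the 43 large-subunit genes. In CPM, which is not divided by length, these medians were 303 and 214. The difference had the same sign in every library. Most counts of Rpl26, Rpl30 and Rpl34 of the large subunit, and of Rps27 of the small subunit, went to near-identical copies, as described below. This lowers the large-subunit genes more often, and the difference was not recomputed with those counts added.

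The highest core gene was Rpl38 (GRCm38 chromosome 11, 114668524 to 114672331), a surface protein of the large subunit that is needed in mouse embryos for the translation of a set of Hox mRNAs. It was at 2239.5, 2742 and 2138 FPKM in replicates 1, 2 and 3. Rps12, on the beak of the small subunit, followed at 1865, 2119 and 1759.7 FPKM (chromosome 10, 23785183 to 23787275). Rps14, whose loss of 1 copy is linked to anaemia in human 5q- syndrome, was at 1548, 1862 and 1438 FPKM (chromosome 18, 60747098 to 60778546). Each of these genes was highest in replicate 2 and lowest in replicate 3.

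Of the remaining genes among the 10 highest, Rps20 averaged 1483 ± 157 FPKM and Rpl23a, which sits at the mouth of the exit tunnel, 1445 ± 138 FPKM (SD, n = 3 each). Rpl39, a small protein inside the exit tunnel, averaged 1379 ± 95.3 FPKM and Rps21 1375 ± 134 FPKM. Rps4x and Rpl10 are X-linked, and Rpl10 joins the large subunit late in its assembly. Rps4x averaged 1325 ± 102 FPKM and Rpl10 1282 ± 122 FPKM. Rpl12, at the base of the stalk that binds elongation factors, averaged 1193 ± 123 FPKM. These 7 means lie close together, and neighbouring genes in this order differed by less than their SD between libraries.

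Core genes came from 19 chromosomes of GRCm38. Chromosome 7 carried 13 of them and the X chromosome 4 (Rpl10, Rpl36a, Rpl39 and Rps4x). Among the X-linked genes Rpl36a was the lowest, at 245 ± 15.66 FPKM.

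**Figure D1:**
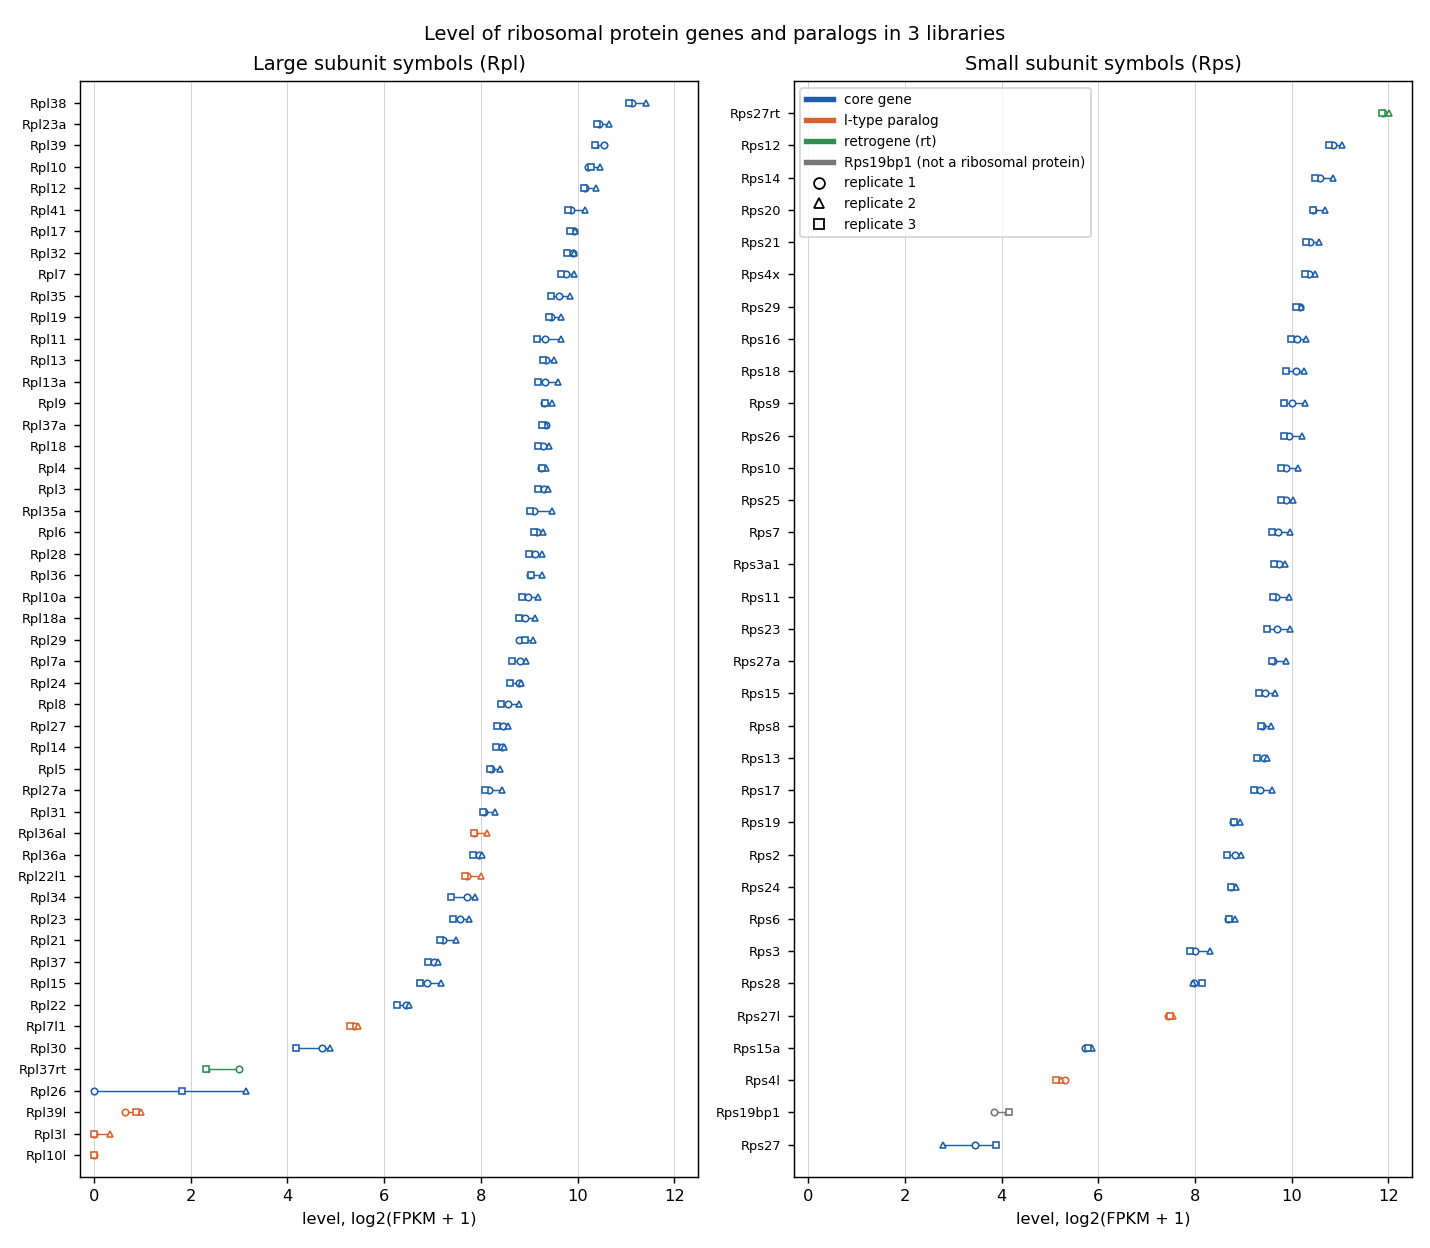
Level of 83 members in each library, with log2(FPKM + 1) on the horizontal axis, large-subunit symbols on the left and small-subunit symbols on the right, ordered by mean; a line joins the 3 replicates of a gene. Most core genes lie between 8 and 11, while Rpl26, Rps27, Rpl30 and the paralogs Rpl39l, Rpl3l and Rpl10l lie far below.

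Only 5 core genes had a mean under 100 FPKM. Rpl26, a large-subunit protein known also for binding p53 mRNA, was listed at 0, 7.89 and 2.55 FPKM in replicates 1, 2 and 3. Rps27, a zinc-finger protein of the small subunit, was at 9.93, 5.92 and 13.8 FPKM. Rpl30 of the large subunit was at 25.3, 28.6 and 17.03 FPKM. Rps15a averaged 54.7 ± 2.79 FPKM and Rpl22, which is required for normal T-cell development in mice, 84.1 ± 7.33 FPKM (SD, n = 3 each). Rpl26 and Rpl30 were highest in replicate 2, and Rps27 was lowest there.

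For Rpl26, Rps27 and Rpl30, as for Rpl34, a near-identical copy elsewhere in the genome held most of the estimated counts. The coding sequence of each core gene was compared with all GENCODE transcripts, and a copy was a gene matching at least 90% of its length at 95% identity or more. By this measure 541 genes matched 70 of the 73 core genes. Rpl21 had the most matches, 56. The counts covered 14 of these copies, matching 13 core genes. In 4 pairs the copy held more estimated counts than the core gene.

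Gm15772, a processed pseudogene on chromosome 5 (3236431 to 3236868), had 6037, 6334 and 5860.0 estimated counts in replicates 1, 2 and 3, against 0, 32.3 and 10.96 for its parent Rpl26 (chromosome 11, 68901583 to 68906989). It held 99.8 ± 0.26% of the counts of the pair (SD, n = 3). Rps27rt on chromosome 9 (114982366 to 114982739) had 4535, 4439 and 4275 estimated counts, against 50.3, 27.2 and 66.7 for Rps27 (chromosome 3, 90212522 to 90213651), a share of 98.9 ± 0.46%. In both pairs every library gave the copy far more counts than the parent, and the copy's counts lay in the range of other core genes.

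Gm12191, a processed pseudogene on chromosome 11 (49678710 to 49679057), had 4303, 4740 and 4249.8 estimated counts, against 121, 131 and 78.2 for Rpl30 (chromosome 15, 34440505 to 34443640), a share of 97.6 ± 0.52%. Rpl34-ps1 on chromosome 6 (71124610 to 71124963) had 3605, 3927 and 3215 estimated counts, against 783, 797 and 620.1 for Rpl34 (chromosome 3, 130726831 to 130730398), a share of 83.0 ± 0.84%. BC004004, a copy on chromosome 17, held 21.04 ± 1.11% of its pair with Rpl21. The other 9 copies held 2.55% or less on average, and Gm8580 and Gm6525 had 0 counts in every library.

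The coding sequences of these pairs differ at few bases, which are shown here because a read that covers none of them carries no mark of its source. Substitutions are counted from the first base of the start codon, with the parent's base first, and the base that differs is in capitals within 41 bases of coding sequence taken from the GENCODE transcripts (GRCm38), read in the direction of the coding sequence. Rpl30 and Gm12191 differ by G96A alone, Rpl26 and Gm15772 by C177T and T288C, and Rpl34 and Rpl34-ps1 by T132C and C318G. Rps27 and Rps27rt are identical over all 255 bases.
Gm12191: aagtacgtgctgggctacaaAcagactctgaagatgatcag
Rpl30: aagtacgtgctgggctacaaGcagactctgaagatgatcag
Gm15772: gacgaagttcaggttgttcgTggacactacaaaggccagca
Rpl26: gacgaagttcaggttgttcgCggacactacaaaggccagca
Rpl34-ps1: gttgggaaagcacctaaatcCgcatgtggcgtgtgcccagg
Rpl34: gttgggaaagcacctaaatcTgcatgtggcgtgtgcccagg

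The authors' counting divides a read between the genes it could come from, and 12 members had estimated counts that were not whole numbers (9 of them core genes). Among these were Rpl26, Rps27, Rps27rt, Rpl30, Rpl34, Rpl37 and Rpl37rt. Which locus of a pair was transcribed could not be told from these tables, and the levels of both genes of each pair are uncertain. When the counts of a copy were added to its parent and divided by the parent's effective length (the transcript length open to fragments), Rpl26 came to 1422 ± 111 FPKM and Rpl34 to 1197 ± 154 FPKM. Rpl30 came to 979 ± 101 FPKM and Rps27 to 926 ± 35.6 FPKM (SD, n = 3 each). All 4 sums lay above the core median of 663 FPKM.

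Over the 73 core genes the SD of log2(FPKM + 1) between genes was 1.03 with the copies added and 1.56 with the deposited counts. With the copies added 71 core genes reached 100 FPKM. Copies held 5.39 ± 0.16% of the estimated counts of core genes and copies together (SD, n = 3). Adding them was decided after the values were seen.

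**Figure D2:**
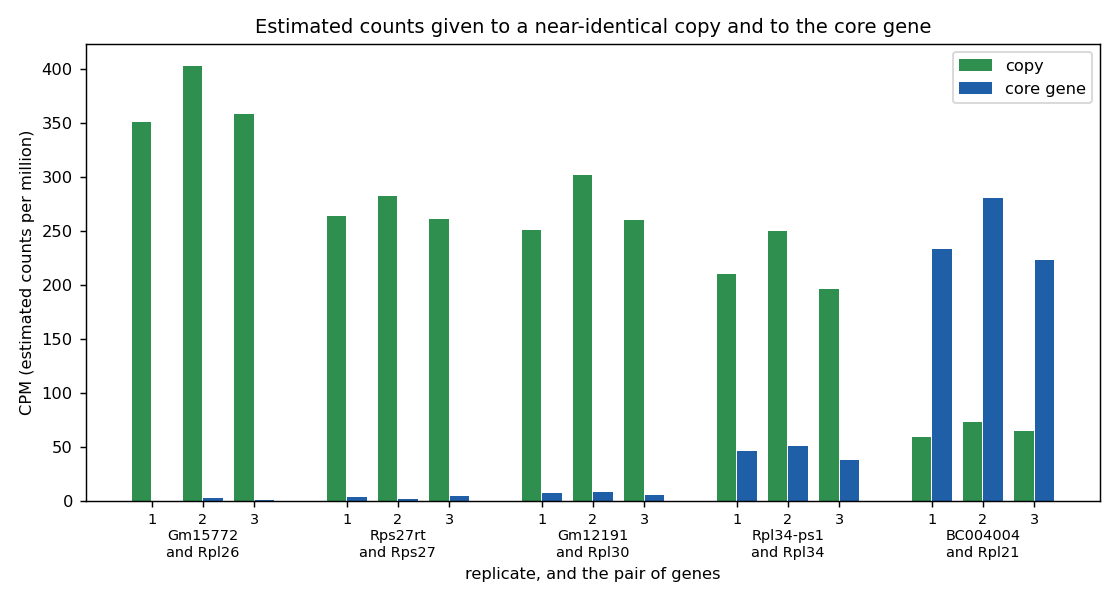
Estimated counts scaled to library size (CPM, vertical axis) of 5 near-identical copies and their parent core genes in replicates 1 to 3, the copy left of the core gene. In 4 pairs the copy holds the larger share of the counts, 83.0% to 99.8% on average, and in the pair of BC004004 and Rpl21 the core gene holds the larger share.

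The order of the genes depended on whether counts were divided by length. Core transcripts were short: the effective length recovered from counts and FPKM had a median of 422 nt over the core genes, against 2462 nt over the 12586 genes with a value. It was under 300 nt for 25 of 73 core genes (34.2%) and for 270 of the 12586 genes (2.15%). Among all tabulated genes, 71 of the 73 core genes ranked higher by mean FPKM than by mean CPM, with a median shift of 478 places. In FPKM 30 core genes were among the 100 highest genes, and in CPM none were (0 of 73).

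The gene with the highest CPM was Rps4x, at 788 ± 59.2 CPM (SD, n = 3). Rpl4, which lines the exit tunnel, followed at 716 ± 26.5 CPM and Rpl3, near the peptidyl transferase centre, at 675 ± 47.2 CPM. The next were Rpl10, Rps7, Rpl7, Rps3a1, Rpl6, Rpl5 and Rps14. Rps4x, Rpl10 and Rps14 were among the 10 highest on both scales. Across the 73 core genes the rank correlation was 0.39 between FPKM and CPM, -0.43 between FPKM and effective length and 0.58 between CPM and effective length. These describe genes measured in the same libraries, not independent replicates.

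The genes with the shortest effective lengths all ranked higher in FPKM. Rpl38, at 27.03 nt, was at rank 18 in FPKM and rank 3546 in CPM, where it averaged 64.1 ± 8.21 CPM. Rps28, at 54.5 nt, was at rank 291 in FPKM and 8431 in CPM, and it had 236, 209 and 255 estimated counts. Rps29 (110.3 nt), Rps21 (111 nt) and Rpl39 (114 nt) followed in length. The transcripts of Rpl38 and Rps28 are 364 and 382 nt in GENCODE, and over all genes the commonest gap between transcript and effective length was 281 nt. The FPKM of these genes therefore rests on a divisor much smaller than the transcript.

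The largest shifts in rank after Rps28 were those of Rpl30, Rps27, Rpl34 and Rpl36a, which moved by 6538, 4817, 4388 and 3997 places. For Rpl30, Rps27 and Rpl34 a near-identical copy held most of the counts, so their ranks are uncertain on both scales. Rpl30 averaged 6.72 CPM and 23.7 FPKM alone, but 277 CPM and 979 FPKM when summed with its copy. Ranks were not recomputed with copies added. At the other end, Rps15a was at rank 1510 in FPKM and rank 623 in CPM, a shift of -887 places. Its effective length was 4853 nt, for a coding sequence of 393 nt. Rpl5, which with Rpl11 carries the smallest ribosomal RNA and can bind Mdm2, moved by -19 places. Rpl4 moved by 24 places. Rpl5 and Rpl4 are among the longer core genes, with effective lengths of 1738 and 1141 nt.

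**Figure D3:**
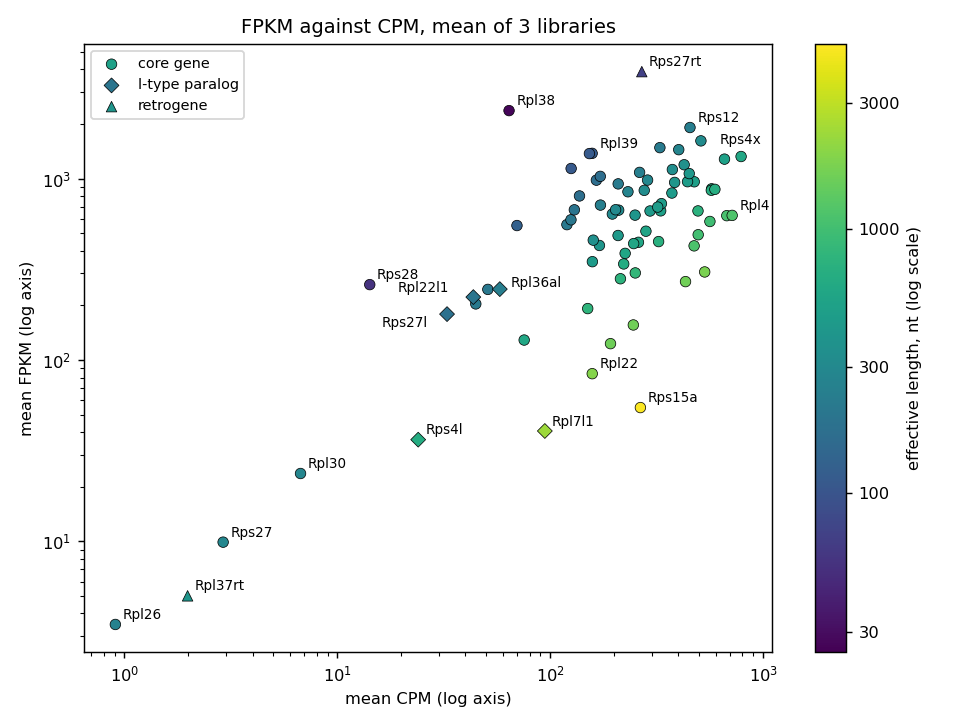
Mean FPKM against mean CPM over 3 libraries, both on log axes, for the 73 core genes, the 5 detected l-type paralogs and 2 retrogenes; colour gives the effective length. At a given CPM the shorter genes lie higher, with Rpl38 (27.03 nt) far above and Rps15a (4853 nt) far below the other core genes.

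The l-type paralogs were expressed below the core genes as a group, but not each below its own parent. The median of the 8 paralogs minus the core median was -3.97, -4.14 and -4.02 on the log2(FPKM + 1) scale in replicates 1, 2 and 3, or -4.04 ± 0.08 (SD, n = 3). In CPM the difference was -3.11, and among genes with a mean of at least 1 CPM it was -1.86. Of the 8 paralogs 5 were detected. The comparison with parents covered 10 pairs, retrogenes included, and was a description with no test.

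The highest paralogs were Rpl36al, Rpl22l1 and Rps27l. Rpl36al, an autosomal relative of the X-linked Rpl36a (chromosome 12, 69182731 to 69184083), was at 229.9, 278 and 229.7 FPKM in replicates 1, 2 and 3, against 249.8, 258 and 228 FPKM for Rpl36a. The ranges overlapped, and the ratio was 1.00 ± 0.08 (SD, n = 3). The coding sequences were 87.9% identical. In estimated counts Rpl36al had 935, 1025 and 889, against 896, 836 and 777 for Rpl36a.

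Rpl22l1 (chromosome 3, 28805436 to 28807424) was at 209, 254 and 204 FPKM, against 86.6, 89.8 and 75.8 FPKM for Rpl22 (chromosome 4, 152325742 to 152334071). In FPKM it was thus 2.64 ± 0.21 times its parent, and the ranges did not overlap. In estimated counts the order was the opposite, with 707, 777 and 655 for Rpl22l1 against 2789, 2639 and 2330 for Rpl22. The effective length of Rpl22 was 1875 nt, while its GENCODE transcript chosen here has 474 nt. With CPM divided by the GENCODE length, Rpl22l1 was at 78.9 and Rpl22 at 332. The direction of this pair thus depended on whether counts were divided by length, and by which length. The effective length of Rpl22 exceeds 474 nt, so the transcript chosen here cannot be the only one counted. Its value per GENCODE length therefore rests on too short a divisor. Which longer transcripts of Rpl22 were counted is not known.

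Rps27l (chromosome 9, 66946086 to 66949516), a paralog that p53 induces and that binds Mdm2, was at 174, 185 and 179 FPKM, against 9.93, 5.92 and 13.8 FPKM for Rps27. This difference of 4.11 ± 0.58 on the log2(FPKM + 1) scale turned to -2.36 when the counts of Rps27rt were added to Rps27. Its coding sequence is 76.1% identical to that of Rps27. The 548, 527 and 538 estimated counts of Rps27l did not differ between libraries beyond counting error (chi-square test given edgeR library sizes, adjusted p = 0.759).

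Rpl7l1 and Rps4l were detected at a small part of their parents' level. Rpl7l1, a nucleolar relative of Rpl7 with a coding sequence 52.9% identical (chromosome 17, 46773907 to 46782672), was at 40.6, 43.0 and 38.1 FPKM, against 861, 966 and 809.6 FPKM for Rpl7. It was at 4.63 ± 0.15% of its parent in FPKM, and its effective length was 2325 nt. In estimated counts the gap was smaller, with 1623, 1571 and 1451 for Rpl7l1 against 9660, 9867 and 8642 for Rpl7. The log2 difference was -4.40 in FPKM and -2.59 in CPM, each with a pseudocount of 1. Rps4l (chromosome 6, 148354656 to 148355598), annotated by GENCODE as a transcribed processed pseudogene, was at 38.6, 36.4 and 34.1 FPKM, against 1307, 1435 and 1232 FPKM for Rps4x, or 2.75 ± 0.21%. Neither range came near that of the parent.

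The paralogs of muscle and testis were at or near 0. Rpl39l had 5, 8 and 7 estimated counts and stayed just under the detection limit, at 0.55, 0.97 and 0.82 FPKM. Rpl3l had 0, 3 and 0 counts, and Rpl10l had 0 in every library. Their parents Rpl39, Rpl3 and Rpl10 were at 1379 ± 95.3, 625 ± 44.3 and 1282 ± 122 FPKM (SD, n = 3 each). None of the 4 muscle markers and none of the 4 germ cell markers was detected (0 of 4 each), with sums of 0.318 to 0.489 CPM for muscle and 0.122 to 0.524 CPM for germ cells.

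The retrogenes stood at opposite ends. Rps27rt was at 3788, 4148 and 3744 FPKM, above every core gene on this scale, with an effective length of 69.2 nt, and in CPM it averaged 269 ± 11.5 (SD, n = 3). Rpl37rt (chromosome 5, 115102923 to 115110268) was at 6.98, 4.03 and 4.01 FPKM, against 130.4, 137 and 119.5 FPKM for Rpl37, with which it differs at 1 base of the 294 aligned. Rps19bp1 (chromosome 15, 80260615 to 80264315) was at 13.4, 16.6 and 16.9 FPKM, against 442, 485 and 447 FPKM for Rps19, the protein it binds. The 127, 143 and 152 estimated counts of Rps19bp1 did not differ between libraries beyond counting error (chi-square test given edgeR library sizes, adjusted p = 0.192). Counting error is wide at such counts, and the TMM-normalised CPM were 7.39, 9.12 and 9.28.

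**Figure D4:**
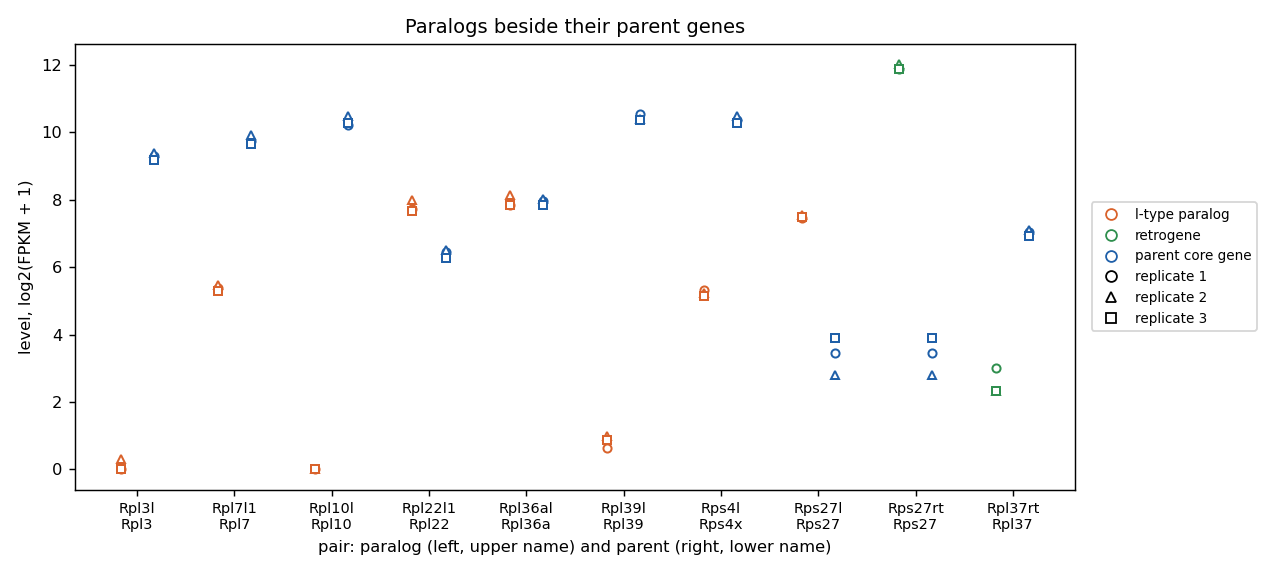
Level of each paralog or retrogene (left of each pair) and its parent core gene (right) in replicates 1 to 3, as log2(FPKM + 1). Rpl36al overlaps its parent, Rpl22l1, Rps27l and Rps27rt lie above theirs, and the other 6 lie below.

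Other genes of the translation machinery were set beside the core genes. The 6 ribosomal proteins with other symbols had a median level of 9.81 ± 0.13 on the log2(FPKM + 1) scale (SD, n = 3), led by the stalk protein Rplp1 with a mean of 3754 FPKM. All 15 elongation and initiation factors and other genes known for TOP mRNAs were detected, with a median of 7.26 ± 0.13 and the highest mean, 4082 FPKM, for the elongation factor Eef1a1. All 22 genes of ribosome assembly and rRNA transcription were detected at a median of 3.87 ± 0.15. The highest of these had a mean of 71.7 FPKM, so none reached 100 FPKM (0 of 22).

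The start sites of the core genes were examined for the TOP motif in the RefSeq promoter sequences (GRCm38.p6), which hold 250 bases before and 50 bases from each start. Of the 84 members 64 matched, among them 54 core genes and 7 l-type paralogs. A C followed by at least 7 pyrimidines, on the sense strand within 50 bases on either side of a start, was present in 47 of 54 core genes (87.0%), 5 of 7 l-type paralogs (Rpl22l1, Rpl36al, Rpl39l, Rpl3l and Rps27l) and 32.0% of the 27025 genes with a promoter. On the opposite strand the shares were 22.2% of core genes and 34.4% of all genes. The stricter form, a C followed by at least 4 pyrimidines beginning exactly at the start, was present in 12 of 54 core genes (22.2%), 0 of 7 l-type paralogs and 3.01% of all genes.

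The starts of 6 paralogs, of the pair of Rps27rt and Rps27, of 4 core genes with the stricter motif at the start (Rpl35, Rps6, Rps10 and Rps18) and of 3 without it (Rpl5, Rps3 and Rps13) are shown to set the forms side by side. They were picked after the matches were known and do not stand for all 54 core genes, of which 12 hold the stricter motif. Each run holds 15 bases before the annotated start and 15 bases from it, and capitals mark a C followed by at least 4 pyrimidines. The sequences are from RefSeq, read on the strand of the gene.
Rpl22l1 (plus strand, chr3:28805493-28805522): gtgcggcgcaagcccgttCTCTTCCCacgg
Rpl36al (minus strand, chr12:69184053-69184082): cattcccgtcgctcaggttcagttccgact
Rpl7l1 (minus strand, chr17:46782642-46782671): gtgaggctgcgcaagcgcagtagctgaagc
Rpl39l (plus strand, chr16:10170213-10170242): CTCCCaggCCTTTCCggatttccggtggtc
Rpl10l (minus strand, chr12:66284387-66284416): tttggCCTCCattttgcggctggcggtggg
Rps27l (plus strand, the upstream of its annotated starts, chr9:66946071-66946100): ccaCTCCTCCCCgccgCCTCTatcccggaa
Rps27rt (minus strand, chr9:114982725-114982754): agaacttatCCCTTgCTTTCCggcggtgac
Rps27 (minus strand, chr3:90213634-90213663): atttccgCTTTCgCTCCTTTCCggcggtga
Rpl35 (minus strand, chr2:39005117-39005146): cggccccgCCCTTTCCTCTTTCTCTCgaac
Rps6 (minus strand, chr4:86857353-86857382): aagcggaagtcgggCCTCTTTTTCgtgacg
Rps10 (minus strand, chr17:27635230-27635259): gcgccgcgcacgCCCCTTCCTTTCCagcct
Rps18 (minus strand, chr17:33955651-33955680): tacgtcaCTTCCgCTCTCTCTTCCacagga
Rpl5 (plus strand, chr5:107900513-107900542): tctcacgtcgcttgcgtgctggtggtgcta
Rps3 (minus strand, chr7:99483695-99483724): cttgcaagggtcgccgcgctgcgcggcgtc
Rps13 (minus strand, chr7:116334176-116334205): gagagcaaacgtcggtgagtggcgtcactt

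In Rpl35, Rps6, Rps10 and Rps18 the pyrimidine run spans the annotated start. Rps6 is the small-subunit protein that S6 kinase phosphorylates. The windows of Rpl36al, Rpl7l1, Rpl5, Rps3 and Rps13 hold no such run. In Rpl39l and Rpl10l the runs end before the start, in Rps27l they lie on either side of it, and in Rpl22l1 it begins just after the start. Rps27rt and Rps27 both hold a run at the start. A match describes letters only.

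Motifs of ETS factors, the family of Pu.1, were counted over the same 300 bases on both strands. CGGAAG was present in 38 of 54 core genes (70.4%), 3 of 7 l-type paralogs, 33.7% of the 10109 genes tested for library differences that had a promoter, and 18.8% of all genes. GAGGAAGT, the core of the sequence that Pu.1 prefers, was present in 3 of 54 core genes (5.56%: Rpl13a, Rpl35 and Rpl36a), 0 of 7 l-type paralogs and 3.80% of the tested genes. The sequence TATAAA on the sense strand in the 50 bases before a start was in 0 of 54 core genes. It was in Rpl22l1 among the 7 l-type paralogs, in 1.84% of the tested genes and in 3.15% of all genes. CGGAAG and GAGGAAGT share the letters GGAAG and differ in the base before them, so no position was counted as both.

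Core genes moved together between the libraries. Counts differed between the 3 libraries by a chi-square test of homogeneity (counts given edgeR's TMM library sizes, Benjamini-Hochberg adjusted p under 0.05) in 68 of 72 core genes tested (94.4%) and 73 of 80 members, against 41.4% of all 13246 genes tested. This test compares libraries and not conditions, and it covers counting error only. A gene with many counts can be called at a smaller shift. The median level as log2(CPM + 1) was 7.97 for core genes and 1.62 over all tabulated genes. Of the 8 microglial markers 6 were called, with a median log2 deviation of -0.002 in replicate 2. The shares are not matched for abundance, and its part in the contrast was not tested. Replicate 2 was the highest library in 67 of 72 core genes (35.9% of all genes), and 65 core genes were both called and highest in replicate 2 (15.7% of all genes). Replicate 3 was the lowest in 60 core genes (34.1% of all genes).

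The shift was small. Core genes in replicate 2 stood above the mean of replicates 1 and 3 by a median of 0.22 on the log2 TMM-normalised CPM scale (quartiles 0.15 and 0.29), or 1.16 times, while the median over all tested genes was 0.00. Rpl30, Rpl11 and Rpl35a had the largest values, 0.53, 0.41 and 0.39. The value of Rpl30 rests on 121, 131 and 78.2 estimated counts, as its copy Gm12191 held 97.6% of the pair. Summed, this pair was at 258, 310 and 265 CPM in replicates 1, 2 and 3. Rpl11 had 3435, 3944 and 2913 estimated counts in replicates 1, 2 and 3. The biological coefficient of variation estimated by edgeR had a median of 0.058 over core genes and 0.0866 over all genes tested.

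With replicate 2 left out, counts differed between replicates 1 and 3 in 42 of 72 core genes, against 18.6% of all genes, again not matched for abundance. Of the 72 core genes 60 were higher in replicate 1, and the median difference was 0.10 (log2). In 57 of the 72 core genes replicate 2 was highest, replicate 1 next and replicate 3 lowest. Of the others, Rpl32, Rpl37a and Rpl39 were highest in replicate 1, and Rps27 and Rps28 in replicate 3. Replicate 1 was the lowest library in 10 core genes, among them Rpl10, Rpl4 and Rps6, and replicate 2 in 2 (Rps27 and Rps28). For Rps27 this rests on 50.3, 27.2 and 66.7 estimated counts. Summed with Rps27rt, the pair was highest in replicate 2, at 267, 284 and 265 CPM in replicates 1, 2 and 3. The counts of Rpl36a, Rpl37a, Rps28 and Rps29 did not pass the test. Rpl39 was at 171, 151 and 150.4 TMM-normalised CPM in replicates 1, 2 and 3. Among members of at least 10 CPM the dispersion was highest in Rps28, Rps4l, Rpl34, Rpl22l1 and Rps27l, which all averaged under 60 CPM.

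Other short genes also stood higher in replicate 2. The other genes compared here leave out all members, the ribosomal proteins with other symbols and the 15 translation genes, which also stood higher in replicate 2. Among the 24 core genes with an effective length under 300 nt the median deviation of replicate 2 from the mean of the 3 libraries was 0.17, against 0.12 for the 148 other genes of that length, of which 64.9% were highest in replicate 2. From 300 to 600 nt the core median was 0.14 and that of the other genes 0.10. From 600 to 1200 nt these values were 0.14 and 0.08, and from 1200 to 2400 nt 0.20 (5 core genes) and 0.02. The core genes stood above other genes in each of these length classes, and the part of length in their shift was not tested. Replicate 2 also had the smallest total, and the part of depth was not tested.

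The 6 ribosomal proteins with other symbols were all called and all highest in replicate 2, with a median deviation of 0.13. Of the 15 translation genes 13 were called and 13 were highest in replicate 2, with a median of 0.08. Of the 22 assembly genes 5 were called and 8 were highest in replicate 2, with a median of 0.01. Microglial markers had a median deviation of -0.00 in replicate 2, neutrophil markers of 0.10 and oligodendrocyte markers of 0.18, with 5 of 6 neutrophil and 4 of 4 oligodendrocyte markers highest there. The 3 erythroid markers tested did not move together: in replicate 2 Hba-a2 deviated by 0.49 and Alas2 by 0.53, but Hbb-bs by -0.65. Alas2 rests on 23, 34 and 19 estimated counts in replicates 1, 2 and 3. Astrocyte markers had a median deviation of 0.07, endothelial markers of 0.01 and choroid plexus markers of -0.01. The part of all these cell types in the shift of the core genes was not tested.

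**Figure D5:**
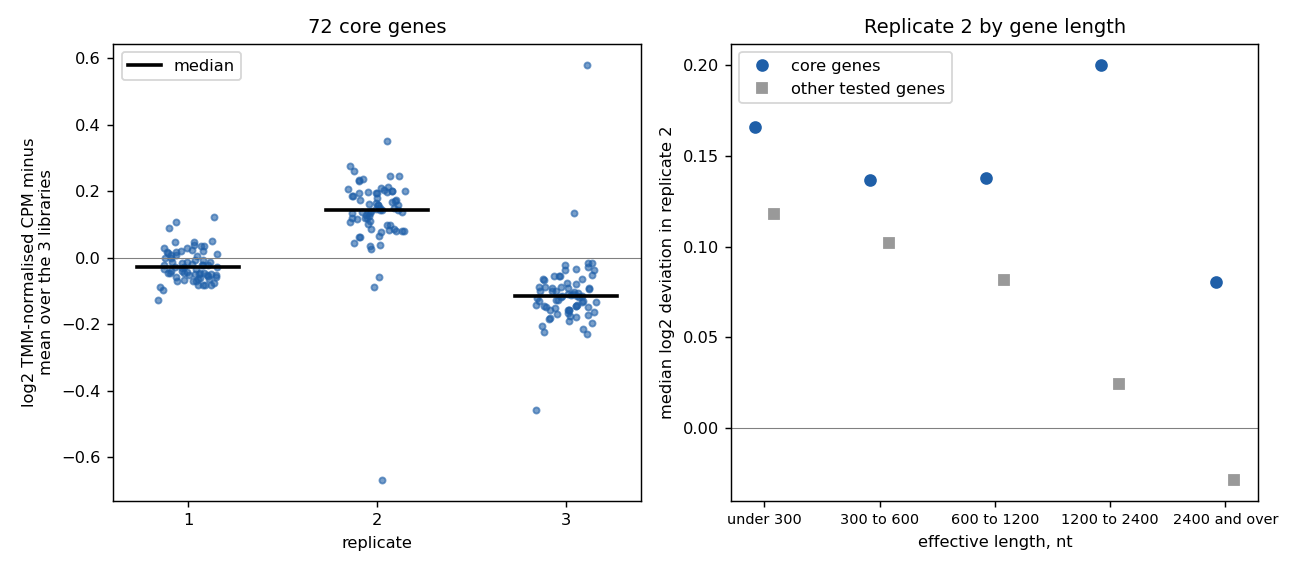
Left, log2 TMM-normalised CPM of the 72 tested core genes minus each gene's mean over the 3 libraries, with a bar at the median. Right, median deviation in replicate 2 by effective length for core genes and other tested genes. The other genes leave out all members, the ribosomal proteins with other symbols and the translation genes. Replicate 2 lies above 0 for most core genes, and the median of the core genes lies above that of other genes in all 5 length classes. The class of 1200 to 2400 nt holds 5 core genes, and that of 2400 nt and over holds only 1.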

How the data were processed

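Total RNA was extracted with a column kit, per the labels' protocols. The authors deposited estimated counts per gene and FPKM per gene, with 1 column for each replicate and 0 columns of other samples. The tools named in the submitters' processing notes are STAR 2.7.9a, RSEM and DESeq2, and the builds GRCm38 and mm10. Settings, annotation, strandedness and the inhibitor's name and dose are not given in the sources used here. With strand unknown, reads of a gene and of one overlapping it on the other strand are not separable.

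CPM and effective length were computed from the deposited estimated counts and the deposited FPKM. The 12 symbols turned into dates were joined by date. Counts were rounded for edgeR 4.0.16 (R 4.3.3; default filter, TMM, intercept only) and the chi-square test, which was tested on simulated data. DESeq2 1.42.0 size factors were an alternative. Levels used log2(FPKM + 1), a pseudocount of 1. All 84 members matched GENCODE M21. Copies were found with BLAST+ 2.17.0 at an E-value of at most 1e-10. Coordinates are 1-based.

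Named genes were all paralogs, retrogenes, Rps19bp1 and parents. Core genes were added as the 10 highest and 5 lowest by FPKM, the 5 largest and 3 smallest rank shifts and the 5 shortest, with the 5 members of highest dispersion. Rps23rg1, listed as well, was not found. Other names (Rpl37rt, the copies, Rpl11, Rpl35a, the 10 highest by CPM, exceptions and printed starts) were chosen after values were seen. Members, lists and tests were chosen with earlier results of these data known. Some genes are counted in the totals but not reported here by name.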

Additional observations from a re-analysis of the deposited data

How the results depend on the processing

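With only 3 libraries of 1 group, depth limits what can be said of Rpl26, Rpl39l, Rpl3l and Rpl10l, and the division of reads between near-identical copies limits Rpl26, Rps27, Rpl30 and Rpl34. No paired analysis was possible because all libraries belong to 1 group.

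The median core level of 9.34 was 7.97 in CPM and 8.35 in CPM per annotated kilobase, which are other units. The paralogs stood below the core genes under each alternative run, by -3.11 in CPM, -3.26 in CPM per annotated kilobase and -1.86 among genes of at least 1 CPM. The share of counts was 2.44% with the ribosomal proteins of other symbols. Without replicate 2, 42 members were called, against 73 with all libraries. Leaving out 1 replicate at a time gave core levels of 9.27 to 9.40, paralog differences of -4.08 to -4.00, shares of 2.06 to 2.25%, 42 to 72 members called, rank shifts of 441 to 544 places and 80 to 81 members detected. DESeq2 size factors and library totals gave 73 called members, and no filter gave 74. Of the 38 alternative values of these 6 results, 31 stayed within the spread between replicates or within 1.5 times the count.

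Of the pairs, Rpl22l1 minus Rpl22 turned to -1.83 in CPM and -2.06 in CPM per annotated kilobase, through the lengths used. The annotated length of Rpl22 used there was shorter than its effective length. Rps27l minus Rps27 turned to -2.36 with copies added, an alternative chosen after seeing the data.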
